A study of Mus musculus with 62 samples.

Results

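The transcripts described here are the period and cryptochrome repressors of the circadian clock, namely Per1, Per2, Per3, Cry1, Cry2 and Ciart. They were chosen by gene symbol, and all 6 were found by Ensembl identifier in both deposited count tables, which hold 12047 genes for the suprachiasmatic nucleus (SCN) and 11569 genes for the nucleus accumbens (NAc) and prefrontal cortex (PFC), with 11133 genes in both. The mice were C57BL/6J males and females that had been through circadian rhythm disruption (CRD), repeated reversals of the light-dark cycle, or a control paradigm, and brain punches were taken at ZT6, about 4 weeks after the paradigm had ended. There were 19 SCN, 26 NAc and 17 PFC libraries from 26 mice. The labels name the region and the mouse number of a library but neither its paradigm nor the sex of the mouse, so the spread over libraries below holds control and CRD mice, and both sexes, together. The methods of the study describe this tissue as from mice with CRD in adolescence and their controls, while the labels' protocol names adult CRD as well.

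The mammalian clock is a loop of transcription and feedback. CLOCK and BMAL1 bind E-box sequences and drive the Per and Cry genes, the PER and CRY proteins gather in complexes that enter the nucleus, and these complexes then shut CLOCK and BMAL1 down until they are degraded. CIART, also called CHRONO, is a smaller repressor of the same activators. The SCN is the pacemaker that follows the retina, and there Per1 and Per2 can also be induced by light through CREB, while other forebrain regions take their timing from the SCN and from hormones and behavior. In the mouse SCN, Per1 and Per2 transcripts are known to be high in the light phase, and Cry1 is known to peak later than the Per genes.

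The total count was 16496666 to 35389742 in SCN libraries, 28879724 to 60009482 in NAc libraries and 31216225 to 50333579 in PFC libraries. Genes of the mitochondrial genome and ribosomal RNA took 31.5% to 66.3% of SCN counts, 45.4% to 75.2% of NAc counts and 49.5% to 67.2% of PFC counts. In the libraries with the fewest reads on them, Ciart still had 61 counts for SCN, 63 for NAc and 95 for PFC. Vip and Avp, peptides of SCN neurons, had medians of 51.8 and 117 CPM in the SCN, Drd1 of striatal projection neurons 115 CPM in the NAc, and Slc17a7 of cortical glutamatergic neurons 634 CPM in the PFC. Libraries SCN J1199 and SCN J1140 had the highest scores for striatal genes among SCN libraries, and NAc J965, NAc J1019 and NAc J1018 had the highest mitochondrial and ribosomal RNA shares of the NAc, at 75.2%, 73.0% and 71.2%. Values without these libraries are given for some of the calls named here. Fits on marker scores and on the mitochondrial and ribosomal RNA share itself were run with all libraries only. Where no such value is given, it is not shown that the call holds without them. Because these are bulk punches, fewer cells of a type and less RNA per cell cannot be told apart.

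The promoter sequences are shown because the E-box, the D-box and the cyclic AMP response element are the sequences through which clock and light signals are known to reach these genes. RefSeq windows of 250 bases before a start site, on GRCm38.p6, were at hand for 5 of the 6 genes, with 2 windows for Per1. Capitals mark an E-box (CACGTG), an E'-box (CACGTT or its reverse complement AACGTG), a D-box (TTATGNAA) or the core of a cyclic AMP response element (TGACGT), searched on both strands. Each runs 5' to 3' on the strand of its gene.
Per1, upstream start, chr11:69098699-69098948, plus strand: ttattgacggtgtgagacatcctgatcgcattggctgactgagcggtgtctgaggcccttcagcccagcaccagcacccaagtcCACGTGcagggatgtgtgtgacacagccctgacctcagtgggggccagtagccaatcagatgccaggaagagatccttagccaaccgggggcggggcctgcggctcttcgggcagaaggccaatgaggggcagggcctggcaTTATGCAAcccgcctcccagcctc
Per1, downstream start, chr11:69099902-69100151, plus strand: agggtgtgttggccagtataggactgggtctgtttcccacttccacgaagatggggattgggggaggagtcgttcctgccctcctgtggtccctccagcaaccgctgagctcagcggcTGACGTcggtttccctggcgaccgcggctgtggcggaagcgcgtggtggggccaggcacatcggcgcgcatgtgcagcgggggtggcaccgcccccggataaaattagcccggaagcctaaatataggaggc
Per3, chr4:151044666-151044915, minus strand: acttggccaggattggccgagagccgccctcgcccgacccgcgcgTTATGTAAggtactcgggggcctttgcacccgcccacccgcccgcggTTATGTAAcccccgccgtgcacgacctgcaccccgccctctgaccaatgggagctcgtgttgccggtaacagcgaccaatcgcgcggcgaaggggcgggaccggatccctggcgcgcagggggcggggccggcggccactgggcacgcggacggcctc
Cry1, chr10:85185055-85185304, minus strand: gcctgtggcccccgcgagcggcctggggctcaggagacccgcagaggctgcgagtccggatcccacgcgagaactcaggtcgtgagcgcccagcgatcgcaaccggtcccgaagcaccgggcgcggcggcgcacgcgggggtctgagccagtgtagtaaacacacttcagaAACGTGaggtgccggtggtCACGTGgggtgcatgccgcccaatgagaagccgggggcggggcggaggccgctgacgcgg
Cry2, chr2:92434070-92434319, minus strand: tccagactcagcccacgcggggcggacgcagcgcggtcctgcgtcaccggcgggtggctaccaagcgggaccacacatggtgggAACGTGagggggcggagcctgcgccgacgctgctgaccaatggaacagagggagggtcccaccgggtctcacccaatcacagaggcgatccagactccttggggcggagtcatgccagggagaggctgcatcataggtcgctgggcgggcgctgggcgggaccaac
Ciart, chr3:95882229-95882478, minus strand: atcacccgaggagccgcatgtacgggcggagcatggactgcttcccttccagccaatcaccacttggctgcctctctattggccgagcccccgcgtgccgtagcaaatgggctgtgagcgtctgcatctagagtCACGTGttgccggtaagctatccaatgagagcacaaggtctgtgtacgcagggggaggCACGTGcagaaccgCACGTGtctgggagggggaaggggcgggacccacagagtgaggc
The Ciart window held 3 E-boxes, which began 116, 58 and 44 bases before the start. Of all 32851 RefSeq windows of this length, 6.02% held an E-box and 20 windows, or 0.0609%, held 3 or more. The Cry1 window held an E-box and an E'-box, the Cry2 window an E'-box alone, and E'-boxes stood in 3.85% of all windows. The Per3 window held 2 D-boxes of the same 8 letters, a number reached by 0.128% of windows, while 3.07% held at least 1. The upstream Per1 window held an E-box and a D-box and the downstream one the core of a cyclic AMP response element, which 6.47% of windows held. These matches describe letters in these windows, not bound sites. The Per2 window was not analysed here.

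Per1 (ENSMUSG00000020893, chr11:69095217-69109960, plus strand, protein-coding, as are the other members) encodes one of the main partners of the cryptochromes. It ranged from 16.2 to 59.7 CPM, a count scaled to library size, in the SCN with a median of 30.4, with a NAc median of 31.0 (20.6 to 43.5 CPM) and a PFC median of 24.4 (18.8 to 34.4 CPM). The regions overlapped, although 6 of 19 SCN libraries lay above every PFC library. Per1 was higher in the SCN than in the PFC by 0.42 ± 0.12 (log2 fold change ± SE, edgeR adjusted p = 0.00096) and the NAc exceeded the PFC by 0.29 ± 0.08 (edgeR adjusted p = 0.0012). Its SCN and NAc levels differed by 0.13 ± 0.10 (edgeR adjusted p = 0.254), less than the spread. Both called differences passed in mice with upper numbers and not in mice with lower numbers, as described with the ranges of mouse numbers.

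Per2 (ENSMUSG00000055866, chr1:91415982-91459324, minus strand), the other main partner of the cryptochromes and the period gene whose loss most disturbs rhythms, set the SCN apart. It ranged from 8.30 to 58.7 CPM in the SCN with a median of 22.6, with a NAc median of 10.6 (6.44 to 16.6 CPM) and a PFC median of 9.18 (4.55 to 13.05 CPM). In the SCN, 14 of 19 libraries exceeded the highest NAc library and 17 of 19 the highest PFC library, and Per2 was higher in the SCN than in the NAc in 18 of 19 mice. The difference was 1.22 ± 0.15 from the NAc (edgeR adjusted p = 3.49e-11) and 1.37 ± 0.17 from the PFC (edgeR adjusted p = 7.3e-11). The NAc and PFC differed by 0.15 ± 0.11 (edgeR adjusted p = 0.243). Per2 was also the most variable of the 6 within the SCN, with a 7.08-fold span. Its SD was 0.73 on the log2 scale, above that of 96.0% of SCN genes. Its highest libraries, SCN J1157 and SCN J1159, had the lowest mitochondrial and ribosomal RNA shares of the SCN, at 31.5% and 36.6%.

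Per3 (ENSMUSG00000028957, chr4:151003652-151044665, minus strand), a period gene that the core loop can do without, was level across regions. Its medians were 12.2 CPM in the SCN (7.57 to 19.0 CPM), 11.3 CPM in the NAc (7.64 to 14.1 CPM) and 11.99 CPM in the PFC (8.47 to 16.3 CPM). No region pair was called, with log2 differences of 0.12 ± 0.08 between SCN and NAc, 0.02 ± 0.08 between SCN and PFC and -0.09 ± 0.06 between NAc and PFC. The Per3 locus overlaps Camta1 on the same strand, and union counting leaves out any read that falls on exons of both.

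Cry1 (ENSMUSG00000020038, chr10:85131700-85185064, minus strand), the stronger repressor of the cryptochromes, was ordered SCN, NAc, PFC. It ranged from 16.7 to 35.6 CPM in the SCN with a median of 25.6, with a NAc median of 19.5 (15.0 to 34.3 CPM) and a PFC median of 11.9 (9.61 to 15.997 CPM). All 19 SCN libraries and 24 of 26 NAc libraries lay above the highest PFC library, and in 17 of 17 mice the NAc level exceeded the PFC level. The SCN exceeded the PFC by 1.12 ± 0.09 (edgeR adjusted p = 8.35e-17) and the NAc by 0.34 ± 0.08 (edgeR adjusted p = 0.000267), and the NAc exceeded the PFC by 0.78 ± 0.09 (edgeR adjusted p = 1.1e-10). The NAc libraries highest in Cry1 were J965 at 34.3, J1019 at 33.0 and J1018 at 28.3 CPM, the same that had the highest mitochondrial and ribosomal RNA shares. Without them the SCN exceeded the NAc by 0.45 ± 0.07 and the NAc exceeded the PFC by 0.68 ± 0.07.

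Cry2 (ENSMUSG00000068742, chr2:92403646-92434043, minus strand) ran the other way. It was lowest in the SCN, at 33.9 to 59.4 CPM with a median of 42.2, against a NAc median of 57.3 (50.3 to 67.6 CPM) and a PFC median of 59.4 (55.2 to 65.8 CPM). In 17 of 19 SCN libraries Cry2 was below the lowest NAc library, and it was higher in the NAc than in the SCN in every one of 19 mice and higher in the PFC in every one of 12. It fell by 0.46 ± 0.05 from the NAc to the SCN (edgeR adjusted p = 7.95e-14) and by 0.50 ± 0.05 from the PFC (edgeR adjusted p = 6.73e-14). Outside the SCN it was among the steadiest of transcripts. Its log2 SD was 0.11 in the NAc and 0.080 in the PFC, and 1.37% and 3.34% of genes had a lower one.

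Ciart (ENSMUSG00000038550, chr3:95878503-95882251, minus strand), the scarcest of the 6 in CPM, had medians of 4.81 CPM for SCN (3.002 to 6.44 CPM), 4.75 CPM for NAc (2.78 to 8.53 CPM) and 4.26 CPM for PFC (2.63 to 6.78 CPM). The regions overlapped almost wholly. The SCN to PFC difference of 0.24 ± 0.11 had an edgeR adjusted p of 0.048 but was under the fold of 1.2, and the other differences were 0.02 ± 0.10 between SCN and NAc and 0.22 ± 0.11 between NAc and PFC. Without NAc J965, NAc J1018 and NAc J1019 the last was 0.28 and called (edgeR adjusted p = 0.02). An antisense gene, C920021L13Rik, overlaps Ciart, and D930015M05Rik on the plus strand overlaps Cry2. Whether the counting used strand is not given in the sources used here.

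**Figure D1:**
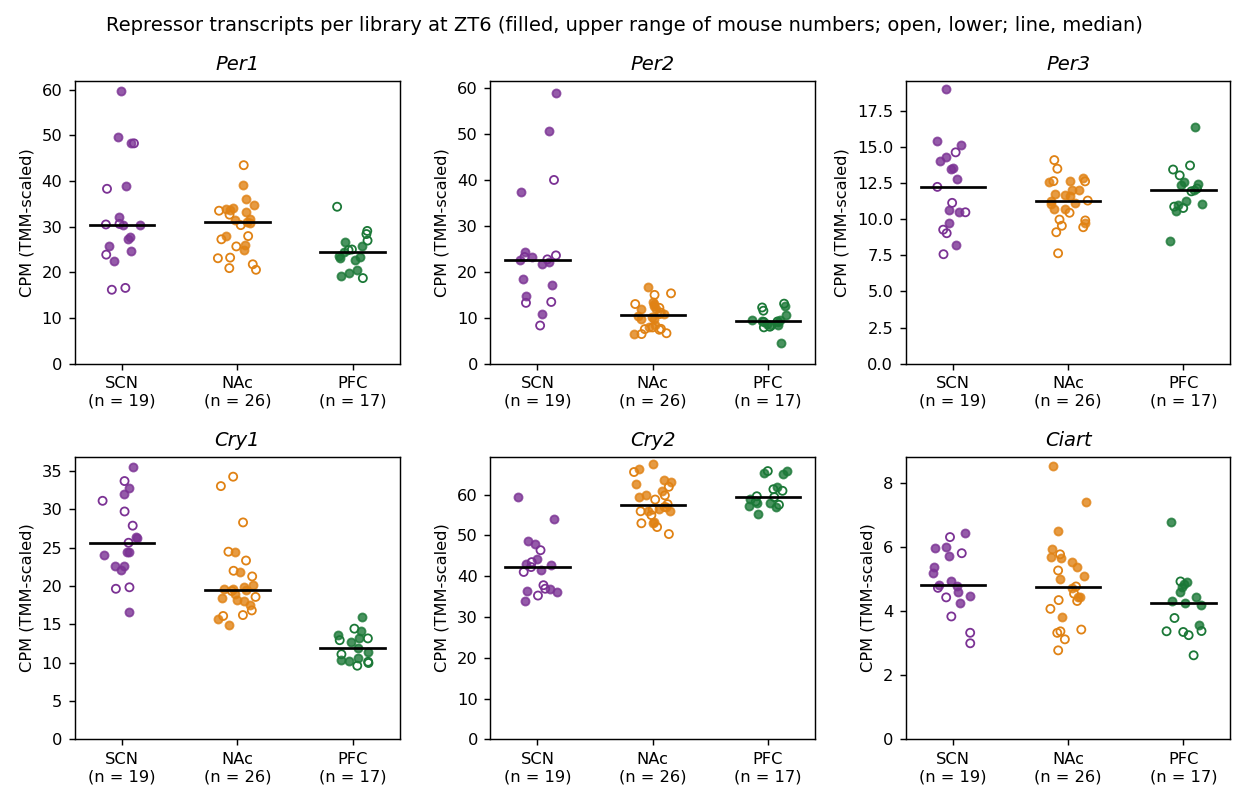
CPM of each repressor in every library of the SCN (n = 19), NAc (n = 26) and PFC (n = 17), scaled together, with medians as lines. Filled points are mice of the upper range of numbers and open points those of the lower range, and Per2 in the SCN spans 8.30 to 58.7 CPM while Cry2 in the PFC spans 55.2 to 65.8 CPM.

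Called in these comparisons were 3 of 6 members between SCN and NAc, 4 of 6 between SCN and PFC and 2 of 6 between NAc and PFC. Of all genes, 64.1%, 64.7% and 45.4% were called, so the share of members called was near that of genes at large. The median log2 difference over all genes was 0.016 between SCN and NAc, 0.032 between SCN and PFC and 0.016 between NAc and PFC, against member differences from -0.50 to 1.37. With the mouse number as a block, in mice with both regions, Per1 fell short of the fold between NAc and PFC at 0.24 (edgeR adjusted p = 0.0256), as it did in the same mice without the block at 0.25, and Ciart passed between SCN and PFC at 0.26 (edgeR adjusted p = 0.0443).

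**Figure D2:**
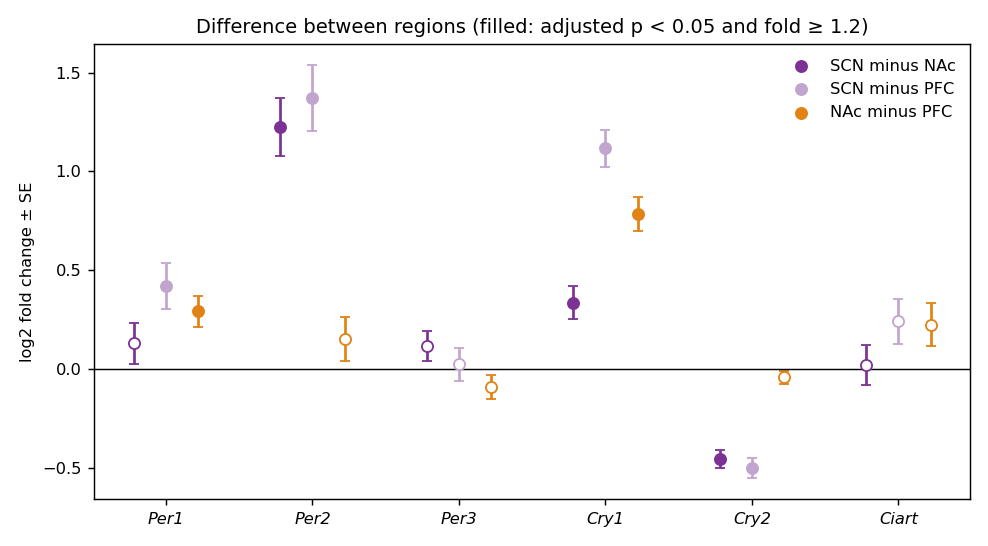
Log2 fold change between regions with its SE for each repressor, where filled points passed an adjusted p of 0.05 and a fold of 1.2. Per2 is higher in the SCN by 1.22 and 1.37, Cry1 falls in order from SCN to NAc to PFC, and Cry2 lies below 0 in both SCN comparisons.

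To set genes beside each other, CPM was divided by the kilobases of all exons annotated for a gene. The transcripts in use were not measured, so close orders can depend on this length. Per kilobase, Cry1 led the medians of the SCN with 7.68 CPM. It was followed by Cry2 with 6.68, Per1 with 5.40, Per2 with 3.86, Ciart with 2.13 and Per3 with 1.27. Cry1 was first in 12 of 19 SCN libraries and Cry2 in 5. In the PFC Cry2 was first in all 17 libraries, with a median of 9.40 CPM per kilobase against 4.33 for Per1 and 3.55 for Cry1. In the NAc Cry2 was first in 24 of 26, and the exceptions were J965 and J1019, where Cry1 was first. The level of Cry2 relative to Cry1 had medians of 0.879 for SCN, 1.65 for NAc and 2.62 for PFC. Per1 exceeded Per2 per kilobase in every library of the 3 regions, with median ratios of 1.43 for SCN, 3.08 for NAc and 2.79 for PFC. In every region Per3 had the lowest median, and Ciart, among the shortest transcripts at 2261 bases of exon, was no longer the lowest.

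Within a region, covariance was tested by fitting every gene on the log2 CPM of a member, and a pair was called where each gene passed with the other as covariate. The most tightly joined pair was Per1 and Per2 in the SCN. SCN J1157 had the highest level of both, with 59.7 CPM of Per1 and 58.7 CPM of Per2, and SCN J1159 the next, with 49.7 and 50.6 CPM, while SCN J1018 had the lowest of both, with 16.2 and 8.30 CPM. Pearson's r was 0.93 and Spearman's rho 0.94 over 19 libraries, each with a permutation p of 1e-05, the smallest that 100000 resamples can give. Leaving out the 2 libraries farthest from the median of Per1 left r at 0.88. It was 0.95 in the 7 libraries of the lower mouse numbers (exact permutation p = 0.000198) and 0.91 in the 12 of the upper range. SCN J1157 and SCN J1159 had the lowest mitochondrial and ribosomal RNA shares, 31.5% and 36.6%, and the highest total counts of the SCN. The next lowest share was 51.3%, in SCN J1160. SCN J1157 and SCN J1159 are both in the upper range, and no setting left out these 2 alone. Per2 rose by 1.30 ± 0.11 log2 units for each log2 unit of Per1 (edgeR adjusted p = 2.5e-07).

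In the NAc the same genes rose together more loosely. Their r was 0.73 (permutation p = 1e-05) and rho 0.69 (permutation p = 0.00011) over 26 libraries, and r was 0.68 without the 2 farthest libraries, 0.75 in the lower range and 0.73 in the upper range. In the PFC r was 0.48 (permutation p = 0.055) over 17 libraries, 0.29 in the lower range and 0.59 in the upper range. The pair was called in the SCN and NAc and not in the PFC. The slope of Per2 on Per1 was not called as different between any pair of regions.

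**Figure D3:**
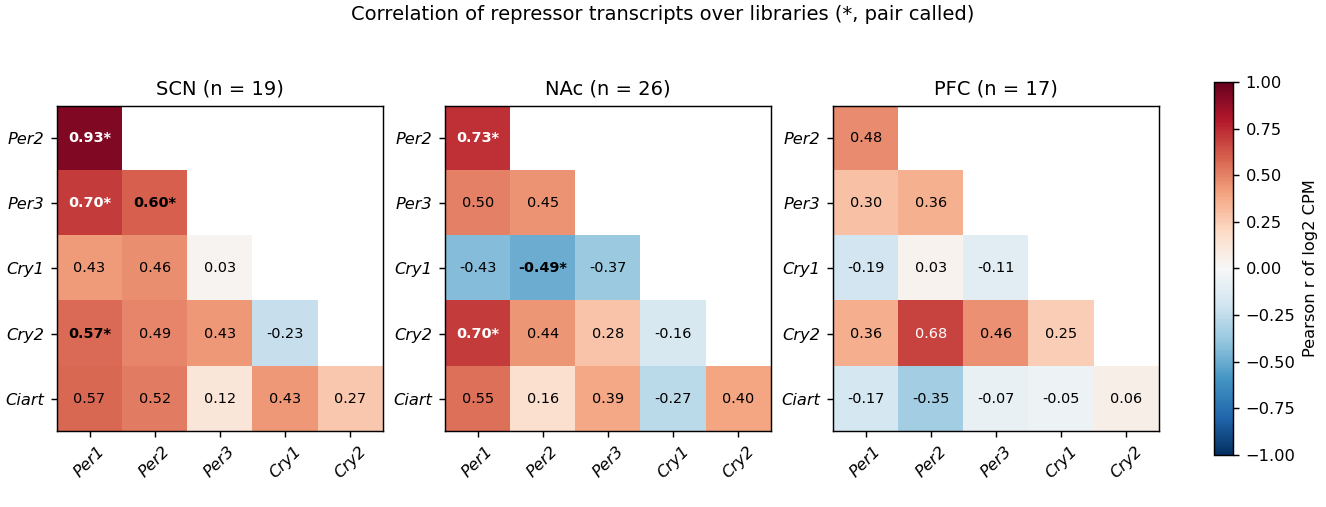
Pearson's r of log2 CPM for the 15 pairs of repressors in the SCN (n = 19), NAc (n = 26) and PFC (n = 17), with a star on each called pair. There are 4 called SCN pairs, 3 called NAc pairs and 0 called PFC pairs, and the only called pair below 0 is Per2 with Cry1 in the NAc, at -0.49.

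Of the 15 pairs, 4 were called in the SCN, namely Per1 with Per2, Per1 with Per3 (r = 0.70), Per2 with Per3 (r = 0.60) and Per1 with Cry2 (r = 0.57). With Per1 as covariate 25.8% of all SCN genes passed (14.9% rising), with Per2 27.9% (15.6% rising), with Per3 9.54% (6.07% rising, 3.47% falling) and with Cry2 34.6% (20.2% rising), so a pass by itself was common there. With Cry1 it was 2.02% (1.54% falling), and 0% without SCN J1199 and SCN J1140, where edgeR gave 979 genes an unadjusted p under 0.05. Per1 with Per2 was called in 9 of 9 SCN settings, Per1 with Cry2 in 6 and Per1 with Per3 and Per2 with Per3 in 5 each, and the last 3 pairs were not called with the range of mouse numbers as a term. Called in the NAc were 3 pairs, Per1 with Per2, Per1 with Cry2 (r = 0.70, rho = 0.63) and Per2 with Cry1 (r = -0.49). There 33.9% of genes passed with Per1, 48.4% with Per2 (24.7% falling), 53.9% with Cry1 (27.3% falling) and 5.29% with Cry2 (3.42% rising, 1.87% falling). Without NAc J965, NAc J1018 and NAc J1019 these shares were 7.64% with Per1, 22.4% with Per2 and 8.02% with Cry2, and 1852 of 11568 genes passed with Cry1. Per1 with Cry2 was called in the NAc under all 9 settings tried, with r between 0.67 and 0.72, Per1 with Per2 in 8 and Per2 with Cry1 in 7. No pair was called in the PFC, where 23.0% of genes passed with Per1 (12.7% rising, 10.3% falling), 0.0432% with Per2 and none with Cry2, against 4272, 2983 and 872 genes at an unadjusted p under 0.05. Of PFC pairs, Per2 and Cry2 had the highest r at 0.68 (permutation p = 0.00102), with rho 0.77 and an edgeR adjusted p of 0.645 for Per2 on Cry2.

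With Ciart as covariate 0% of SCN genes and 0.0259% of NAc genes passed (0.00864% rising, 0.0173% falling), and no pair with it was called. The NAc share was 4.73% without NAc J965, NAc J1018 and NAc J1019. Its r with Per1 was 0.57 in the SCN (permutation p = 0.0101) and 0.55 in the NAc (permutation p = 0.0033), but in the NAc it was 0.63 at lower mouse numbers and 0.060 at upper ones. Cry1 and Cry2, the paralogs, had an SCN r of -0.23, a NAc r of -0.16 and a PFC r of 0.25.

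Per2 and Cry1 had opposite slopes in the SCN and the NAc. Over SCN libraries Cry1 changed by 0.17 log2 units for each log2 unit of Per2 and over NAc libraries by -0.42, a difference of 0.59 ± 0.16 (edgeR adjusted p = 0.0237, 7.7% of all genes called). With Cry1 as covariate, the slopes of Per2 were 1.202 and -0.65 (adjusted p = 0.0258) and those of Per1 were 0.79 and -0.36 (adjusted p = 0.0395), and 15.2% of genes were called. These 3 were the only calls among 90 slope comparisons of members between regions, which were chosen after the correlations had been seen. The NAc values changed when the libraries with the highest mitochondrial and ribosomal RNA shares were left out. Without NAc J965, NAc J1018 and NAc J1019, r of Per2 with Cry1 in the NAc was -0.17 in place of -0.49 (permutation p = 0.45). None of the 3 slope differences was then called, in a fit with fewer libraries. Their sizes are given with the flagged results, and the cause of the change was not tested.

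**Figure D4:**
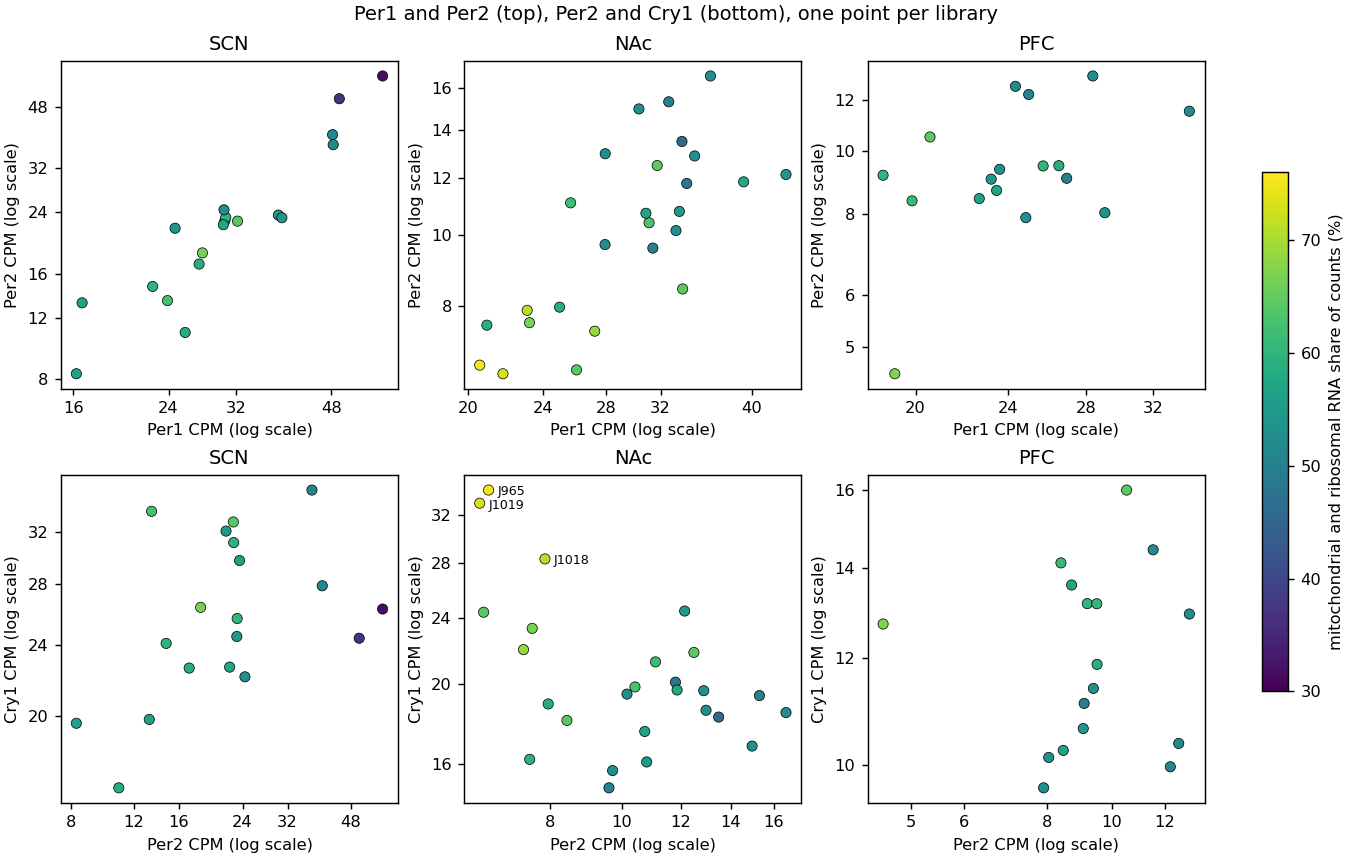
CPM of Per2 against Per1 (top) and of Cry1 against Per2 (bottom) in each library, on log axes, with the mitochondrial and ribosomal RNA share of the counts as color. Per1 and Per2 rise together most tightly in the SCN, and in the NAc the libraries J965, J1019 and J1018 hold the highest Cry1, Per2 between 6.44 and 7.88 CPM, and the highest shares, 75.2%, 73.0% and 71.2%.

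The mitochondrial and ribosomal RNA share itself moved with the members. In the NAc it had an r of 0.75 with Cry1, -0.75 with Per2 and -0.66 with Per1, and 61.1% of NAc genes were called with it. In the PFC r was 0.59 with Cry1, -0.57 with Per2 and -0.69 with Per1, with 39.7% of genes called. In the SCN it was -0.72 with Per2, -0.64 with Per1, -0.59 with Cry2 and 0.032 with Cry1, with 40.6% called. These SCN values include SCN J1157 and SCN J1159, whose shares of 31.5% and 36.6% were the lowest there. Per3 and Ciart were called with it in no region. With the share as a term, Per1 and Per2 in the SCN were still called (r = 0.88), Per2 and Cry1 in the SCN became a called pair (r = 0.70), and in the NAc Per1 and Per2 were no longer called (r = 0.48), Per1 and Ciart became a called pair (r = 0.58) and Per2 and Cry1 had an r of 0.16. The part of the share in these results was not tested further.

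Scores of cell type marker genes also moved with some members. A score of 9 genes of SCN neurons, several of which are themselves under clock control, had an r of 0.83 with Per2, 0.78 with Per1 and 0.77 with Cry1 in the SCN, where 3.49% of genes were called with it. Per3, Cry2 and Ciart, with r of 0.43, 0.045 and 0.51, were not called. With this score as a term, r of Per1 and Per2 was 0.80 and r of Per2 and Cry1 was -0.49 in place of 0.46. SCN J1199, highest in striatal genes, had the lowest Cry1 of the SCN at 16.7 CPM and the next to highest Cry2 at 54.1 CPM, near the NAc levels of those genes. SCN J1140 had 22.6 CPM of Cry1 and 44.1 CPM of Cry2, near the SCN medians of 25.6 and 42.2. The striatal score was called in the SCN with neither Cry1 (r = -0.53, edgeR adjusted p = 0.267) nor Cry2 (r = 0.40, edgeR adjusted p = 0.619), where 2.37% of genes were called. Without SCN J1199 and SCN J1140, Per2 exceeded the NAc by 1.30 and Cry2 fell by 0.48. In the NAc Cry1 fell with the score of cortical glutamatergic neurons (r = -0.73, 44.9% of genes called) and of astrocytes (r = -0.70, 55.3% called) and rose with that of striatal projection neurons (r = 0.50, 24.5% called). Per2 rose with the astrocyte score in the NAc (r = 0.58) and with the cortical glutamatergic score in the PFC (r = 0.64, 30.3% called). The part of cell mix in these values was not tested.

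The other genes of the loop were counted against each member. Nr1d1, which encodes REV-ERB alpha, the repressor of Bmal1 and Cry1, rose with Per1 in all 3 regions, by 0.88 ± 0.07 log2 units for each log2 unit in the SCN (edgeR adjusted p = 1.9e-07), 0.86 ± 0.17 in the NAc (edgeR adjusted p = 0.000723) and 0.76 ± 0.19 in the PFC (edgeR adjusted p = 0.0096). Its relative Nr1d2, REV-ERB beta, did not pass with Per1 in the SCN (0.07) or the PFC (-0.26) and fell with it in the NAc by 0.48 ± 0.10 (edgeR adjusted p = 0.001). Nr1d2 rose with Cry1, by 0.61 ± 0.14 in the SCN (edgeR adjusted p = 0.0215) and 0.41 ± 0.10 in the NAc (edgeR adjusted p = 0.00081), and its PFC slope of 0.55 ± 0.13 did not pass (edgeR adjusted p = 0.0856). The slope of Nr1d1 on Cry1 was -0.90 ± 0.15 in the NAc (edgeR adjusted p = 2.05e-05). It did not pass in the SCN (0.72 ± 0.36, edgeR adjusted p = 0.449) or the PFC (-0.32 ± 0.25, edgeR adjusted p = 0.425). The SCN call of Nr1d2 with Cry1 was lost without SCN J1199 and SCN J1140, at 0.73 ± 0.17 (edgeR adjusted p = 0.117). Without NAc J965, NAc J1018 and NAc J1019 no NAc call of Nr1d1 or Nr1d2 with Per1 or Cry1 held, with slopes on Per1 of 0.46 ± 0.16 for Nr1d1 (edgeR adjusted p = 0.0645) and -0.32 ± 0.12 for Nr1d2 (edgeR adjusted p = 0.092), and of 0.22 ± 0.16 for Nr1d2 on Cry1 (edgeR adjusted p = 0.357). With the mitochondrial and ribosomal RNA share as a term the slope of Nr1d1 on Per1 was 0.76 and called in the SCN, 0.56 in the NAc (edgeR adjusted p = 0.0593) and 0.80 in the PFC (edgeR adjusted p = 0.611), where edgeR called 0 of 11563 genes and 837 had an unadjusted p under 0.05. Under the same term the slope of Nr1d2 on Cry1 was 0.60 and called in the SCN but -0.03 in the NAc (edgeR adjusted p = 0.912). That of Nr1d2 on Per1 became called in the SCN at 0.36 (edgeR adjusted p = 0.0489) and was -0.13 and not called in the NAc. That of Nr1d1 on Cry1 became called in the SCN at 0.73 (edgeR adjusted p = 0.043) and was -0.68 and not called in the NAc. None of these slopes passed in the PFC. In the SCN 3 of the 4 REV-ERB and ROR genes in the table rose with Per1 and with Per2, among them Rora and Rorb.

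Of the 4 genes of PAR bZIP output factors and Nfil3, 2 rose with Per1 in SCN libraries, 1 in NAc and 0 in PFC libraries. Dbp, an E-box-driven output factor, rose with Per1 by 0.54 ± 0.08 in the SCN (edgeR adjusted p = 0.000166) and 0.47 ± 0.16 in the NAc (edgeR adjusted p = 0.0225, but 0.0518 without the 3 NAc libraries and 0.111 with the range as a term), and Hlf rose with Per1 in the SCN. The NAc slope of Dbp on Per1 was 0.84 ± 0.18 and called with the mitochondrial and ribosomal RNA share as a term (edgeR adjusted p = 0.00349). The activators Clock, Arntl (Bmal1) and Npas2 had 1 of 3 rising with Per1 in the SCN and 0 in the NAc and PFC. Of the activity-dependent genes, 3 of 12 rose with Per1 in the SCN, 6 of 16 rose and 1 fell in the NAc, and 2 of 16 rose in the PFC. Nr4a3, an orphan nuclear receptor induced by neuronal activity, was among those that rose in the SCN and the PFC. Of the kinases, ligases and partners of PER and CRY, 4 of 11 rose and 1 fell with Per1 in the SCN and 2 rose and 3 fell in the NAc. Glucocorticoid-responsive genes mostly did not pass, with 1 of 10 falling for SCN, 1 of 11 for NAc and 0 of 11 for PFC. Of all genes 25.8%, 33.9% and 23.0% passed with Per1 in the SCN, NAc and PFC, and 14.9%, 16.8% and 12.7% rose. These shares are the background for the counts above. Without NAc J965, NAc J1018 and NAc J1019, 7 of 16 activity-dependent genes rose with Per1 in the NAc and 0 fell. Of the kinases, ligases and partners 1 of 11 rose and 0 fell there, and 4.79% of all genes rose. With the mitochondrial and ribosomal RNA share as a term, 5 of 16 activity-dependent genes rose in the NAc and 0 fell. Of all genes 6.35% then rose. With the mitochondrial and ribosomal RNA share as a term 0 genes of these lists passed with Per1 in the PFC, and in the SCN 4 of 4 REV-ERB and ROR genes, 2 of 12 activity-dependent genes, 1 of 11 kinases, ligases and partners and 0 of 3 activators rose.

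By mean Fisher-transformed r over the 3 regions (11133 genes, 62 libraries), the genes most like each member were as follows. For Per1 they were Igfbp5 (r = 0.97, 0.65 and 0.68 in the SCN, NAc and PFC), Nr1d1 (0.94, 0.73 and 0.70) and Evi5l (0.68, 0.81 and 0.86). For Per2 they were Dlk1 (0.97, 0.67 and 0.34), Bcor (0.86, 0.84 and 0.63) and Nr4a3 (0.92, 0.54 and 0.77). Per3 had looser partners, led by Gigyf1 (0.74, 0.67 and 0.41) and followed by Gne and Fam129b. For Cry1 they were Nr1d2 (0.75, 0.66 and 0.77), Rab28 and Phf21a, and for Cry2 they were Lmtk2 (0.82, 0.81 and 0.67), Cacng3 and Ppargc1b. For Ciart they were Dbp (0.64, 0.59 and 0.67), Rpusd2 and Cirbp, the last an RNA-binding protein known to respond to temperature. The libraries of a region share the depth and RNA shares given above, and these likenesses are descriptions.

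Whether a mouse high in a repressor in one region was high in another was asked over the 17 mice with NAc and PFC, the 19 with SCN and NAc and the 12 with SCN and PFC. No member and no gene of the tables, 0%, was called for such agreement by permutation of mice, with 1043, 359 and 620 genes at an unadjusted p under 0.05. The smallest permutation p of 100000 resamples is 1e-05, and a gene alone at that p cannot pass adjustment over 11133 genes or more. The lack of calls therefore does not show that agreement was absent. With range means subtracted, 3 genes were called for NAc and PFC, 3 for SCN and NAc and 0 for SCN and PFC, and no member was among them. Per1, Per2, Per3 and Cry2 had r between -0.27 and 0.29 over all mice. Between NAc and PFC, r of Per1 was 0.69 in the upper range (n = 10, permutation p = 0.0263, adjusted p = 0.781) and 0.26 in the lower range. It was 0.54 without mice J965, J1018 and J1019 (n = 14, permutation p = 0.0484, adjusted p = 0.77). Subtracting range means gave 0.40 (permutation p = 0.118), and leaving out the 2 farthest mice gave -0.23. SCN J1157, with the highest Per2 of the SCN, also had the highest of the NAc at 16.6 CPM, but over all 19 mice r was 0.054.

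Over all mice, Ciart had the highest same-mouse r of the members in the pairs of SCN with NAc and NAc with PFC. It was 0.54 between SCN and NAc (n = 19, permutation p = 0.0169, adjusted p = 0.999), with rho 0.65, above 99.5% of genes. It was 0.55 between NAc and PFC (n = 17, permutation p = 0.0212, adjusted p = 0.473), above 98.5% of genes, and 0.076 between SCN and PFC (n = 12, permutation p = 0.816). Between SCN and NAc, r was 0.89 in the 12 mice of the upper range (permutation p = 8e-05, adjusted p = 0.297) and 0.085 in the 7 mice of the lower range (exact permutation p = 0.851). Subtracting the mean of each range left 0.39 between SCN and NAc (permutation p = 0.0998). Mouse J965 had 6.32 CPM of Ciart in the SCN and 2.78 CPM in the NAc, the lowest NAc value. Without mice J965, J1018 and J1019, of which the 2 with an SCN library counted here, r between SCN and NAc was 0.81 (n = 17, permutation p = 0.00012, adjusted p = 0.223). Between NAc and PFC, r was 0.064 in the lower range and 0.33 in the upper range, and subtracting the mean of each range left 0.21. Cry1 had an r of -0.35 between NAc and PFC (permutation p = 0.161), and -0.67 without those 3 mice (permutation p = 0.0103, adjusted p = 0.592).

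**Figure D5:**
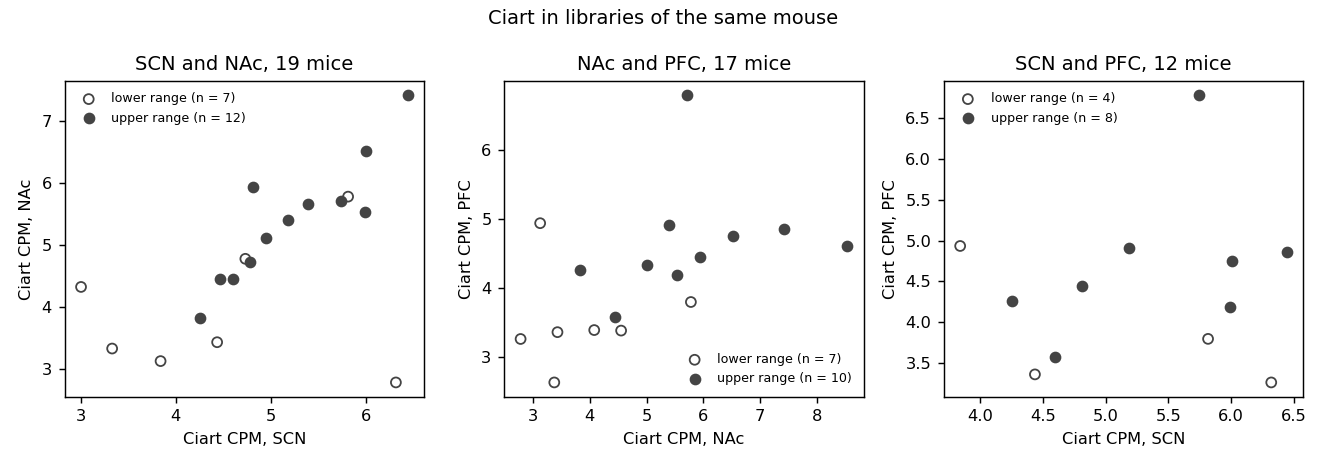
CPM of Ciart in a region against its CPM in another region of the same mouse, for SCN and NAc (19 mice), NAc and PFC (17 mice) and SCN and PFC (12 mice). Filled points are the upper range of mouse numbers and open points the lower, and the open point at 6.32 and 2.78 CPM in the first panel is mouse J965.

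There is a gap in the mouse numbers between J1021 and J1140, and the labels do not say whether the lower and upper ranges it leaves are cohorts. Ciart was higher in the upper range in the NAc, with 3.83 to 8.53 CPM and a median of 5.47 against 2.78 to 5.78 CPM and a median of 4.2003. The difference of 0.44 ± 0.11 was called (edgeR adjusted p = 0.0346), as were 1.38% of genes, and it was the only member called. With the mitochondrial and ribosomal RNA share as a term it was 0.45 and not called (edgeR adjusted p = 0.0855). Without NAc J965, NAc J1018 and NAc J1019, the first pair of which had the lowest NAc levels of Ciart, it was 0.36 ± 0.12 and not called (edgeR adjusted p = 0.275), and 0.00864% of genes were. In the PFC Ciart differed by 0.40 ± 0.15 (edgeR adjusted p = 0.796) and in the SCN by 0.22 ± 0.14 (edgeR adjusted p = 0.765), where 0% of genes were called in either region, with 546 and 626 at an unadjusted p under 0.05 and no member called by DESeq2 either.

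The NAc exceeded the PFC in Per1 by 0.48 ± 0.07 in the upper range (edgeR adjusted p = 1.6e-06) and by 0.04 ± 0.14 in the lower range (edgeR adjusted p = 0.842). The SCN exceeded the PFC in Per1 by 0.61 ± 0.12 in the upper range and by 0.13 ± 0.20 in the lower range (edgeR adjusted p = 0.573). The interaction of region and range for the NAc and PFC was 0.44 ± 0.15 (p = 0.00391, edgeR adjusted p = 0.155), so the ranges were not shown to differ. No gene, 0%, was called for this interaction by edgeR, with 2279 genes at an unadjusted p under 0.05. The NAc exceeded the PFC in Cry1 in both ranges, by 0.62 ± 0.08 in the upper range and 0.97 ± 0.16 in the lower range, while its SCN to NAc difference was called in the upper range (0.45 ± 0.09) and not in the lower (0.24 ± 0.15, edgeR adjusted p = 0.147). Per2 and Cry2 kept their calls between the SCN and each other region in both ranges.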

How the data were processed

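RNA of SCN, NAc and PFC punches was sequenced as paired ends from SmartSeq HT libraries. Per the labels and the methods of the study, the authors checked reads with FastQC 0.11.7, aligned them to GRCm38 with HISAT2, counted genes with HTSeq in union mode, removed low genes and chromosome Y genes, and deposited raw whole-number counts, the SCN apart from the NAc and PFC. The SCN was compared with the other regions on the 11133 genes in both tables.

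Counts were scaled by TMM and tested with the quasi-likelihood test of edgeR 4.0.16 (filterByExpr, Benjamini-Hochberg over all genes). Calls between regions or ranges needed a 1.2-fold change or more beside an adjusted p under 0.05, and other calls the adjusted p alone. Covariates and correlations used log2 CPM with a prior count of 2. Permutation tests were two-sided with 100000 resamples, exact under 10 samples. DESeq2 1.42.0, its size factors, a prior count of 0.5, other filters, ranges and blocks were alternatives. Exon lengths and positions came from GENCODE M21. The fits were tested on simulated data.

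The members and gene lists were chosen with earlier results of these data known. Named outside the members are genes of those lists and, for each member, the 3 genes most like it. Libraries of the same number come from the same animal, and the median correlation of their deviations from region means was -0.003 for NAc and PFC, 0.0014 for SCN and NAc and 0.099 for SCN and PFC. The p-values measure the spread between mice of unlabelled paradigm and sex, so neither CRD nor sex was compared. Counts were lowest for Ciart, whose lowest library had 61, and the lowest count of another member was 136, for Per3 in the SCN. Counting noise was not separated from the spread between mice.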

Additional observations from a re-analysis of the deposited data

Results flagged for a closer look

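The slopes between Per2 and Cry1, and of Per1 on Cry1, were called as different between the SCN and the NAc. These comparisons were chosen after the correlations had been seen, so they are not separate support. In the SCN, Per2 with Cry1 was a called pair in 1 of 9 settings. Of all genes 7.7% had a called slope difference with Per2 as covariate and 15.2% with Cry1. The slope of Cry1 on Per2 was higher in the SCN by 0.59 (SE 0.16, edgeR adjusted p = 0.0237), the slope of Per2 on Cry1 by 1.85 (SE 0.58, edgeR adjusted p = 0.0258) and the slope of Per1 on Cry1 by 1.15 (SE 0.39, edgeR adjusted p = 0.0395). With DESeq2 size factors all 3 stayed called, with adjusted p of 0.0247, 0.033 and 0.0471. With the mitochondrial and ribosomal RNA share as a term they were 0.29, 1.0002 and 0.64 and none was called, with edgeR adjusted p of 0.537, 0.193 and 0.338. Without NAc J965, NAc J1018 and NAc J1019 they were 0.28, 1.48 and 0.66, and without SCN J1199 and SCN J1140 only the slope of Cry1 on Per2 was called, at 0.53. The part of the RNA share in the difference was not tested beyond these values.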

How the results depend on the processing

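The calls of Per2 and Cry2 between the SCN and each other region, of Cry1 between the SCN and PFC and between the NAc and PFC, kept direction and call under every alternative run. Between NAc and PFC the members called fell from 2 to 1 in the lower range, with the replicate block by mouse number and in the same mice without the block, where Per1 alone was lost. Its differences there were 0.04, 0.24 and 0.25. The block changed no other call but that of Ciart between SCN and PFC. In the lower range Per1 between SCN and PFC (0.13) and Cry1 between SCN and NAc (0.24) were not called. Directions of uncalled differences reversed for Per2 between NAc and PFC (-0.013) and for Per3 between SCN and NAc (-0.023) and between SCN and PFC (-0.20) in the lower range, and for Ciart between SCN and NAc in the upper range (-0.086) and without the 3 NAc libraries (-0.026). The same held for Per1 between SCN and NAc with the RNA share as a term (-0.0038).

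Member pairs called in the SCN fell from 4 to 1 with the range or the log2 total count as a term, Per1 with Per2 in each case, and to 2 with the mitochondrial and ribosomal RNA share as a term. They were called in the NAc in 5 cases with Slc17a7 as a term, and 1 PFC pair was called with the total count as a term. The r of Per2 and Cry1 reversed to -0.49 in the SCN with the SCN neuron score as a term and to 0.16 in the NAc with the RNA share as a term. The same-mouse r of Ciart between SCN and PFC reversed to -0.098 by rank, -0.69 in the lower range and -0.019 with range means subtracted. With the RNA share as a term, and without the 3 NAc libraries, 0 members were called between ranges in the NAc, where Ciart differed by 0.45 (edgeR adjusted p = 0.0855) and 0.36 (edgeR adjusted p = 0.275). For these changes the cause was not tested. Leaving out the filter removed no gene, so it bears on no result. The RNA share as a term, the fits without NAc J965, NAc J1018 and NAc J1019, all slope comparisons and the joint fit of all regions for the NAc and PFC were chosen after seeing the data.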
